A study of Mus musculus with 24 samples.

Results

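The proteasome subunit genes were taken from the deposited expression table by name: every protein-coding gene whose mouse symbol (GENCODE M21, GRCm38) begins with Psma, Psmb, Psmc, Psmd or Psme followed by a number, with a mean of at least 10 normalised reads over the libraries. In all, 45 genes match the name, and 43 of the 18240 genes of the table also passed the minimum. Beyond that minimum the rule uses names alone, though the list was chosen with earlier results of these data known. Among the 43 are 14 genes of the constitutive core particle, 17 of the regulatory cap, 3 catalytic subunits of the immunoproteasome, 4 activators, 3 assembly chaperones of the cap, the thymoproteasome gene Psmb11, and Psmc3ip, a meiotic recombination factor that shares only letters with the ATPase gene Psmc3. Psma8, the testis form of an alpha subunit, had a mean of 7.53 and Psme2b, a copy related to Psme2, had 8.76, both just under the minimum. Psmb11 at 12.8, Psmb9 at 36.2 and Psmc3ip at 53.5 were the members just above it.

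The tissue was prefrontal cortex of C57BL/6J mice of both sexes at postnatal day 40, and polyadenylated RNA was sequenced. Mice heterozygous for an allele written as Dyrk1a+/I48X, called HT, received vehicle, lithium (used to stabilise mood) or fluoxetine (a blocker of serotonin reuptake), and wild-type mice, called WT, received vehicle. Each of the 4 arms held 6 libraries, 3 female and 3 male, so that all 3 HT arms carry the allele and each drug was compared within HT alone. The sources used here give no doses or durations. No label says that the libraries of a group are separate animals, so each p-value reflects the scatter among these libraries alone, part of which may be technical.

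A proteasome degrades proteins that carry ubiquitin chains. Its core is a barrel of alpha rings, which gate the entrance, and beta rings, which hold the cutting sites. The cap binds ubiquitin, removes it and unfolds the substrate with a ring of ATPases, while activators are alternative end pieces. Immunoproteasomes carry interferon-inducible catalytic subunits in place of the constitutive ones and are known for making peptides for antigen presentation. In neurons, proteasomes turn over synaptic and misfolded proteins.

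The promoters of 37 of the 43 members were found among the RefSeq promoters (GRCm38.p6, 250 bases before to 50 after each start), and 10 short motifs were searched on both strands. Of the 10, core and cap differed most in the motif bound by ETS-family factors, CCGGAAG, which was present in 9 of the 14 cap promoters found and in 1 of the 11 core promoters, that of Psma6. Psme3 and Psme4 also held it, and it occurred in 8.86% of all 32851 promoters and in 17.6% of the 12174 tested genes with a promoter. The antioxidant response motif TGACNNNGC, the kind bound by Nfe2l1 and related factors, was in Psmb5, Psmb6, Psmc6, Psmd12, Psme4 and Psmd9, that is 6 of the 37, against 16.5% of the tested genes with a promoter and 12.4% of all promoters. GGGCGG, the GC box, was in 22 of the 37 promoters and in 65.8% of tested genes, and CCAAT was in 15 and in 42.6%. A match is a description of letters in this window and not evidence of a bound factor. The following stretches, each of 60 bases, wholly upstream of the RefSeq start and printed in the direction of the gene, show the ETS-type motif in 5 cap genes and 1 activator, and the antioxidant motif in Psmb6, with the motif on either strand in capitals. They lie at chr5:21785164-21785223 (plus strand) for Psmc2, chr14:45329697-45329756 (plus) for Psmc6, chr16:20651592-20651651 (plus) for Psmd2, chr3:95042707-95042766 (minus) for Psmd4, chr11:80428555-80428614 (plus) for Psmd11, chr11:101316079-101316138 (plus) for Psme3 and chr11:70525297-70525356 (plus) for Psmb6.
Psmc2: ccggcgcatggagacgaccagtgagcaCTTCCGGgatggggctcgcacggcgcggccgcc
Psmc6: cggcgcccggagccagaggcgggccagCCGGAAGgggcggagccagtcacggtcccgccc
Psmd2: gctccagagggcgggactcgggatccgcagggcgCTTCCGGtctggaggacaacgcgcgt
Psmd4: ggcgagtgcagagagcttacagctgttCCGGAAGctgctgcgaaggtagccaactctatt
Psmd11: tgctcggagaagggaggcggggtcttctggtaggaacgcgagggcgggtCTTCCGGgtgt
Psme3: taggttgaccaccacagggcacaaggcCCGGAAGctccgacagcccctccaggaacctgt
Psmb6: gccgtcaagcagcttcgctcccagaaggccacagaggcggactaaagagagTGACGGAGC

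Depth ran from 24133344 to 35940460 recovered reads per library. The libraries labelled HT did not hold less Dyrk1a: WT libraries held 2088 to 2349 normalised reads and HT vehicle libraries 2254 to 2431 (log2 difference 0.10, SE 0.04, adjusted p = 1.0 by limma), and a gene total cannot show a change in the coding sequence. All 8 markers of prefrontal excitatory neurons were present in every library, Slc17a7 for instance at 28907 to 53751. Markers of the olfactory bulb were high in 6 libraries (HT fluoxetine female 1 and male 1, HT lithium male 1, HT vehicle female 2 and male 3, WT female 2), which are called the bulb-high libraries. Their summed level ran from 994 to 24881 normalised reads in WT, 716 to 21330 in HT vehicle, 932 to 30213 in HT fluoxetine and 361 to 25277 in HT lithium, with Eomes or Tbx21 listed at 0 in some library of each HT arm. High Drd2 (striatum) or Ttr (choroid plexus) marked 4 others (HT vehicle male 1 and female 1, WT female 1, HT fluoxetine female 2). All vehicle libraries carry the batch label P40_L1 and all lithium libraries P40_L2, so batch and lithium cannot be told apart, and 1 fluoxetine library (female 3) is in P40_L2.

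Psmb6 was the most abundant core subunit gene and Psmc5 the most abundant cap gene, and the spread between subunits that sit in the same complex was several-fold. Levels between genes are given as normalised reads per kilobase of transcript, averaged over the 24 libraries. The core genes had a median of 1514 per kb (639 to 2521, a 3.95-fold range) and the cap genes 1359 per kb (555 to 2964, a 5.34-fold range), against 170 over all genes tested. Cytosolic ribosomal protein genes stood higher, at a median of 3607 per kb, and nuclear genes of oxidative phosphorylation at 2443 per kb. The core and cap transcripts were short, with median lengths of 1162.5 and 1636 nt against 2928 nt over all genes, though longer than the ribosomal (878 nt) and oxidative phosphorylation (865 nt) transcripts.

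Among alpha-ring genes, Psma7 was highest at 2417 per kb and Psma3 lowest at 639. The beta ring ran from Psmb6 at 2521 to Psmb1 at 1335, with its 3 catalytic genes near the top: Psmb7, the trypsin-like site, was at 2175 and Psmb5, the chymotrypsin-like site, at 1852, while Psmb6 is the caspase-like site. In the ATPase ring of the cap the extremes were Psmc5 at 2964 and Psmc6 at 835. Psmd2, a scaffold that docks ubiquitin-carrying shuttle proteins, led the non-ATPase base genes at 1970 per kb, ahead of the ubiquitin receptor gene Psmd4 (1691) and the scaffold gene Psmd1 (1063). Lid genes ran from Psmd7, the partner of the deubiquitinase Psmd14, at 1596 down to Psmd11, a clamp between lid and base, at 555.

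The immunoproteasome was a minor form at the RNA level. Psmb10 stood at 451 per kb, Psmb8 at 46.9 and Psmb9 at 26.8. The ratio of the constitutive to the immune form per kb averaged 41.0 ± 8.4 (SD, n = 24 libraries, range 21.04 to 55.7) for Psmb5 over Psmb8, 100.2 ± 25.0 (52.2 to 156) for Psmb6 over Psmb9 and 4.87 ± 0.48 (4.06 to 5.82) for Psmb7 over Psmb10. Psmb10 was the immune subunit closest to its constitutive counterpart. Of the activators, the nuclear Psme3 was highest at 1038 per kb, the interferon-inducible pair Psme1 and Psme2 stood at 627 and 333, and Psme4, another nuclear activator, at 274. Psme2 is uncertain where reads of Psme2b could be split between the copies. The cap chaperones Psmd9 (267 per kb) and Psmd10 (200) were below the subunits whose assembly they guide, and Psmb11, known from thymic cortical epithelium, was at 3.01 per kb and listed at 0 in 1 lithium library.

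**Figure D1:**
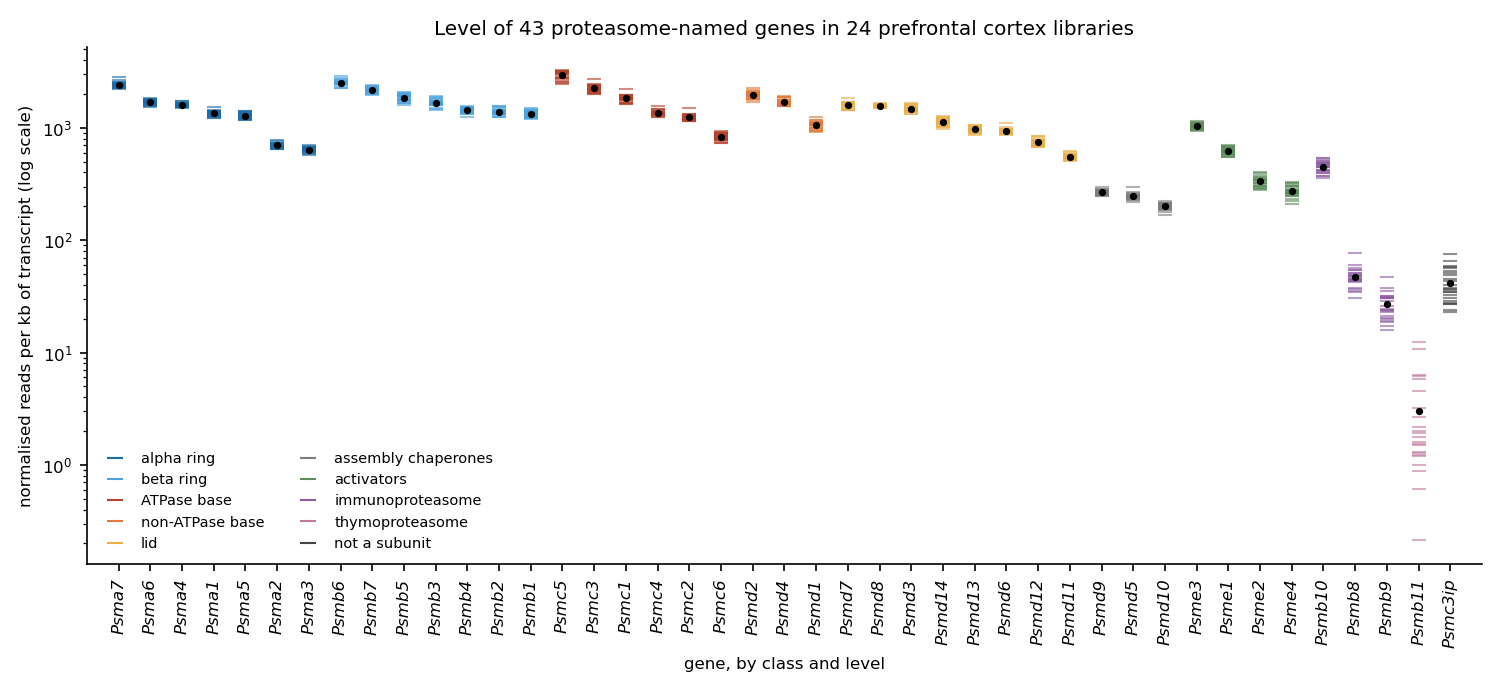
Level of each proteasome gene in normalised reads per kilobase of transcript (log axis), grouped by class, with a tick for each of the 24 libraries and a black dot for the mean; the single value of 0 (Psmb11) is not drawn. Core genes lie between 639 and 2521 and cap genes between 555 and 2964, while Psmb8, Psmb9 and Psmb11 sit far below.

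Core and cap genes varied less across the 24 libraries than the median gene, at levels above it. Their coefficient of variation over libraries had a median of 5.63% in the core and 6.53% in the cap, against 12.2% over all genes, 9.22% in ribosomal protein genes and 8.39% in oxidative phosphorylation genes. Psmd8, a lid subunit, varied least of the members: 2.86%, with the highest library 1.1-fold above the lowest. Psma4, of the alpha ring, was the steadiest core gene at 3.81%. The largest values were those of the low genes, Psmb11 (106%), Psmc3ip (33.9%), Psmb9 (27.4%, a 3.0-fold range) and Psmb8 (20.4%, a 2.51-fold range).

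The bulb-high libraries differed from the others in the cap more than in the core. They lay wholly outside the range of the other 18 for 6 of the 43 members, against 18.4% of all genes tested, so the members do not stand out from the background in this count. Psme4 lay above, at 1982 to 2147 against 1369 to 1944 normalised reads. Below were 5 of the 17 cap genes: Psmc5 (3244 to 3654 against 3667 to 4256), Psmd14 (1492 to 1603 against 1664 to 1951), Psmd7 (2254 to 2378 against 2465 to 2939), Psmd1 (2857 to 3097 against 3127 to 3849) and Psmd2 (5022 to 5619 against 5624 to 6727). In these libraries 16 of 17 cap means were lower (median log2 difference -0.13), Psmd8 being the exception, and 13 of 14 core means were lower by less (median -0.07) with 0 of 14 outside the range. Psmb11 stood 2.20 higher on the log2 scale in the bulb-high libraries and Psmc3ip 0.79 higher. Psmb11 was a low gene, with a median of 5.98 normalised reads in the other 18 libraries (0 to 19.4). Its median in the bulb-high libraries was 26.6 (11.3 to 52.8), and the ranges overlapped. The median of the other 18 lies under the minimum mean used to choose genes. Psmb11 therefore owes its place among the members to the high values in the bulb-high libraries. These libraries were chosen on olfactory bulb markers, so the differences describe them and carry no test. In a bulk sample, fewer cells of a type and less RNA per cell cannot be told apart.

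Across the 18 libraries that are not bulb-high, beta-ring genes varied together with the ribosomal and oxidative phosphorylation genes, and the cap score had lower correlations with them. Each library was scored by the mean log2 deviation of a gene group from its mean over the libraries. The beta-ring score had a Pearson r of 0.92 with the oxidative phosphorylation score (Spearman rho 0.86, r 0.89 without the 2 libraries farthest from the median) and 0.83 with the ribosomal score (rho 0.83, r 0.74 without those 2). For the alpha ring the r with oxidative phosphorylation was 0.62 (rho 0.64, then 0.51). The cap score had an r of 0.21 with oxidative phosphorylation (rho 0.39, then 0.27), -0.05 with the ribosomal score (rho 0.11, then -0.10) and 0.46 with the core score (rho 0.61, then 0.55). Over all 24 libraries, the bulb-high ones included, these cap values were 0.46, -0.38 and 0.65 in the same order. The core score had an r of 0.86 with oxidative phosphorylation over the 24 and 0.85 over the 18. With the ribosomal score the core had 0.32 over the 24 and 0.72 over the 18. These points share library, depth and base composition, and the correlations are descriptions. The core score had an r of -0.16 with the number of recovered reads (rho -0.21, then 0.03), and the cap score 0.42 (rho 0.18, then 0.10). Of the marker scores, the cap had an r of 0.44 with striatal markers (rho 0.57, then 0.57). It had -0.35 with endothelial markers (rho -0.43, then -0.28) and 0.23 with microglia markers (rho -0.11, then -0.14). The part of depth and of these markers was not tested.

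**Figure D2:**
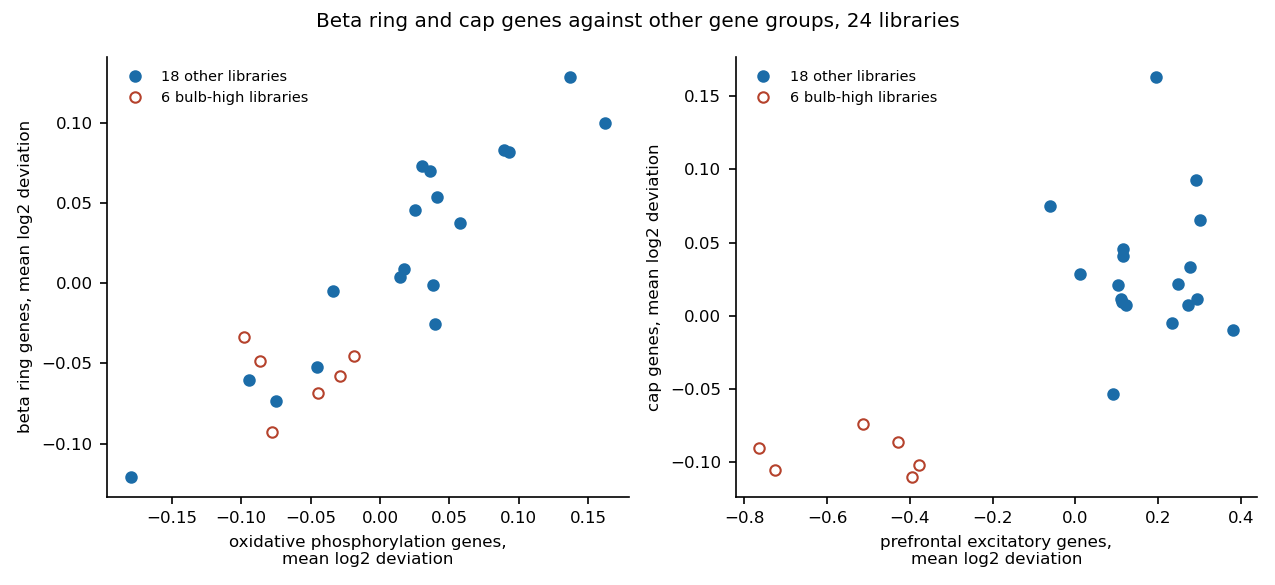
Library scores (mean log2 deviation of a gene group) of the beta ring against oxidative phosphorylation genes, and of the cap against markers of prefrontal excitatory neurons, with the 18 other libraries filled and the 6 bulb-high libraries open. The filled points of the beta ring follow a line (r = 0.92), and those of the cap have an r of -0.01. The panels have different horizontal axes, so these r do not compare beta ring with cap. In the cap panel the open points lie apart, with cap scores of -0.110 to -0.074 against -0.054 to 0.163. In the beta-ring panel the open points lie within the range of the filled ones.

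Gene by gene, the median pairwise r over the 18 libraries was 0.57 among the 7 beta-ring genes (21 of 21 pairs above 0, from 0.37 to 0.84), 0.45 among core genes (84 of 91 pairs above 0), 0.42 among cap genes (115 of 136) and 0.24 between core and cap (183 of 238), where all genes gave a median of -0.0015. The non-ATPase base genes Psmd1, Psmd2 and Psmd4 had a median of 0.81 and the lid genes only 0.28. Beta-ring and immune subunits had a median of 0.38, with 21 of 21 pairs above 0, while the activators had -0.08 among themselves. Among the 31 core and cap genes the highest pair was Psmc2 with Psmd1 at 0.91, and Psmb2 with Psmb6 reached 0.84. Psmc6, an ATPase gene, held the 6 lowest pairs of these 31 genes, among them Psma7 at -0.76, Psmb6 at -0.67 and its ring partner Psmc4 at -0.63. Psmc6 was positive with other core genes, such as Psma3 at 0.50 and Psma4 at 0.44. These extremes were chosen after their values were seen, and the pairwise values likewise pool arms, sexes and batches.

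**Figure D3:**
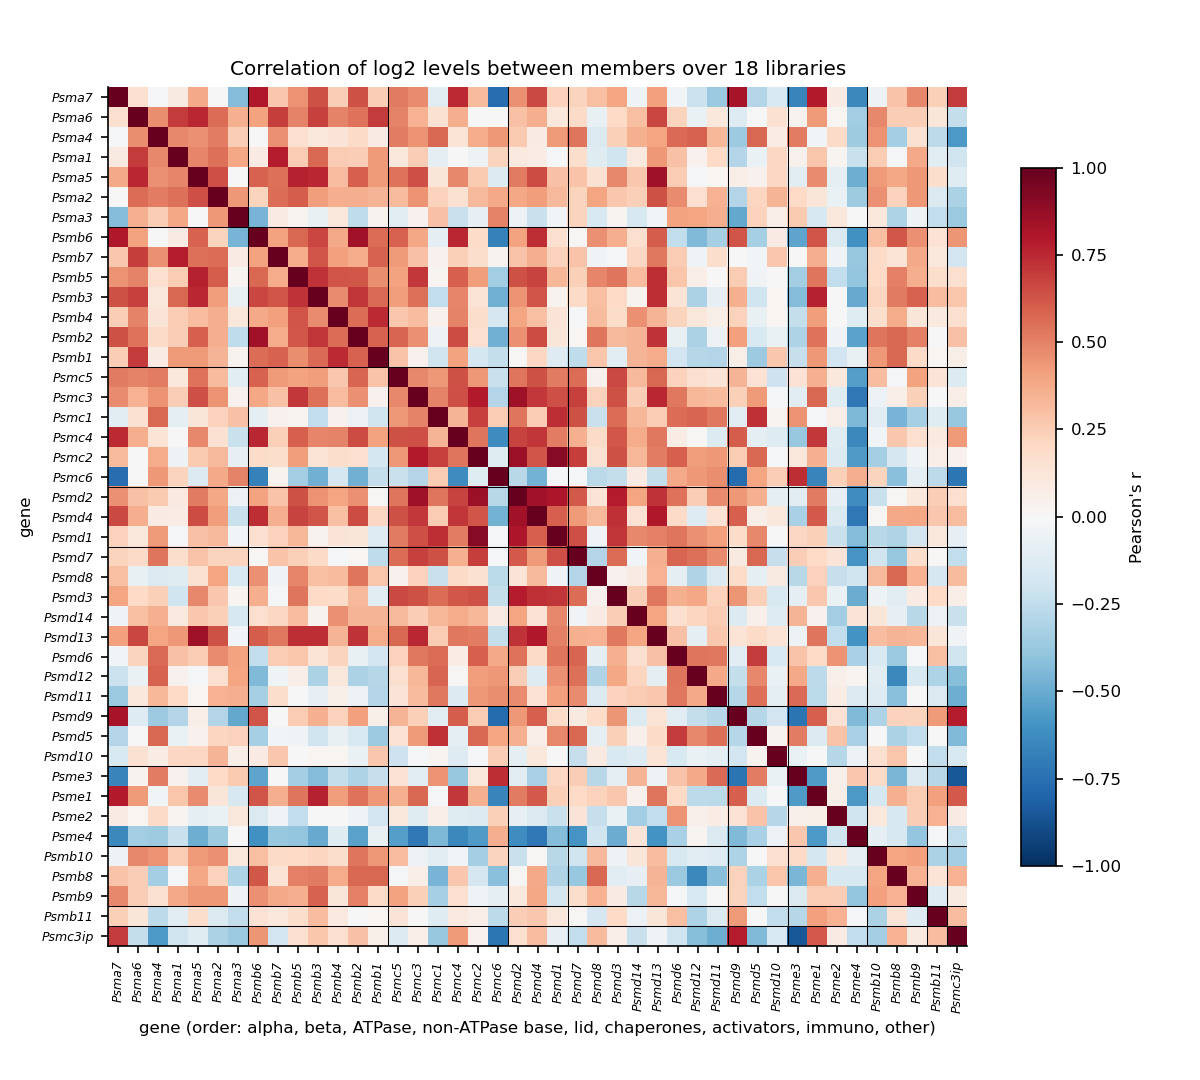
Pearson r between each pair of the 43 members over the 18 libraries that are not bulb-high, ordered by class, colour from -1 to 1. The beta-ring block is positive throughout (0.37 to 0.84), while Psmc6 runs from -0.76 (Psma7) to 0.50 (Psma3) within the core.

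The genotype comparison asked how levels in HT vehicle libraries differ from those in WT vehicle libraries. No proteasome gene passed the test: 0 of the 43 passed an adjusted p under 0.05 by limma, against 0% of all genes tested, 1 had an unadjusted p under 0.05 against 2.7% of all genes, and edgeR and DESeq2 on the recovered reads also called 0 members. The 31 core and cap genes had 95% intervals of the log2 difference within -0.19 to 0.15 (folds of 0.877 to 1.11). None of the 43 had arms that do not overlap, against 0.19% of all genes.

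By direction, 8 of 14 core genes were higher in HT (median log2 difference 0.02) and 15 of 17 cap genes lower (median -0.03), against 48.7% of all genes higher and 51.3% lower. The cap count changed with the bulb-high libraries: without those 6, 7 of 17 cap genes were lower and the median was 0.01, and without HT vehicle male 3 alone, which is 1 of them, 8 of 17 were lower. Without HT vehicle female 2 or without WT female 1, the count was 10 of 17. Scaled by total reads, 12 of 17 were lower (median -0.02). On the log2 scale, 7 of 7 olfactory bulb markers were lower in HT vehicle (median -0.78). In plain arm means, Doc2g (1713 in WT, 1730 in HT vehicle) and Eomes (432 and 501) were higher. Calb2, Cdhr1, Sp8, Tbx21 and Th were lower in these means. Microglia markers were higher for 10 of 10 (median 0.11, summed level 11003 to 13318 normalised reads in WT and 12558 to 13595 in HT vehicle). Striatal markers were higher for 8 of 8 (median 0.18, summed level 4314 to 15027 and 4511 to 31811) and red blood cell markers lower for 5 of 5 (median -0.12), and the part of these 4 lists in the result was not tested. For comparison, 69 of 77 ribosomal protein genes were higher (median 0.06).

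Psmb4, a non-catalytic beta subunit (chr3:94884093-94886961), had the smallest p among the members. Its normalised reads in WT were 1675 at lowest, 1756 in the median and 1809 at highest, and in HT vehicle 1484, 1657 and 1797. The arms overlapped, with 5 of 6 HT libraries under the WT mean (log2 difference -0.08, SE 0.04, unadjusted p = 0.0404, adjusted p = 1.0). Psma1, of the alpha ring, ran from 1462 (median 1560) to 1733 in WT and from 1521 (median 1640) to 1836 in HT vehicle (log2 difference 0.07, SE 0.04, adjusted p = 1.0). Psmb9 was listed at 21.3, 31.5 and 50.2 in WT and 27.6, 37.0 and 63.8 in HT vehicle (lowest, median, highest), a log2 difference of 0.28 with an SE of 0.22 and an adjusted p of 1.0. Without the 6 bulb-high libraries that difference was -0.02.

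The catalytic core genes lay close between WT and HT vehicle. Psmb5 ran from 1507 (median 1720) to 1841 in WT and from 1505 (median 1678) to 1751 in HT vehicle. Psmb6 ran from 1941 (median 1998) to 2082 against 1961 (median 1976) to 2324, and Psmb7 from 2321 (median 2525) to 2716 against 2324 (median 2562) to 2782. The arms overlapped for each of these genes. Of the other immune subunits, Psmb8 had medians of 77.6 (60.6 to 87.9) and 78.4 (60.1 to 97.3), and Psmb10 622 (514.5 to 701) and 601 (546 to 639).

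The activators' arms overlapped. Psme1 had medians of 674 (616 to 787) in WT and 705 (644 to 764) in HT vehicle, and Psme2 of 321 (279 to 337) and 310 (277 to 386). Psme3 had medians of 2842 (2643 to 2957) and 2693 (2469 to 3033), and Psme4 of 1799 (1660 to 2115) and 1706 (1436 to 2018). Their log2 differences were 0.04, 0.04, -0.06 and -0.08, with unadjusted p from 0.310 to 0.683.

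**Figure D4:**
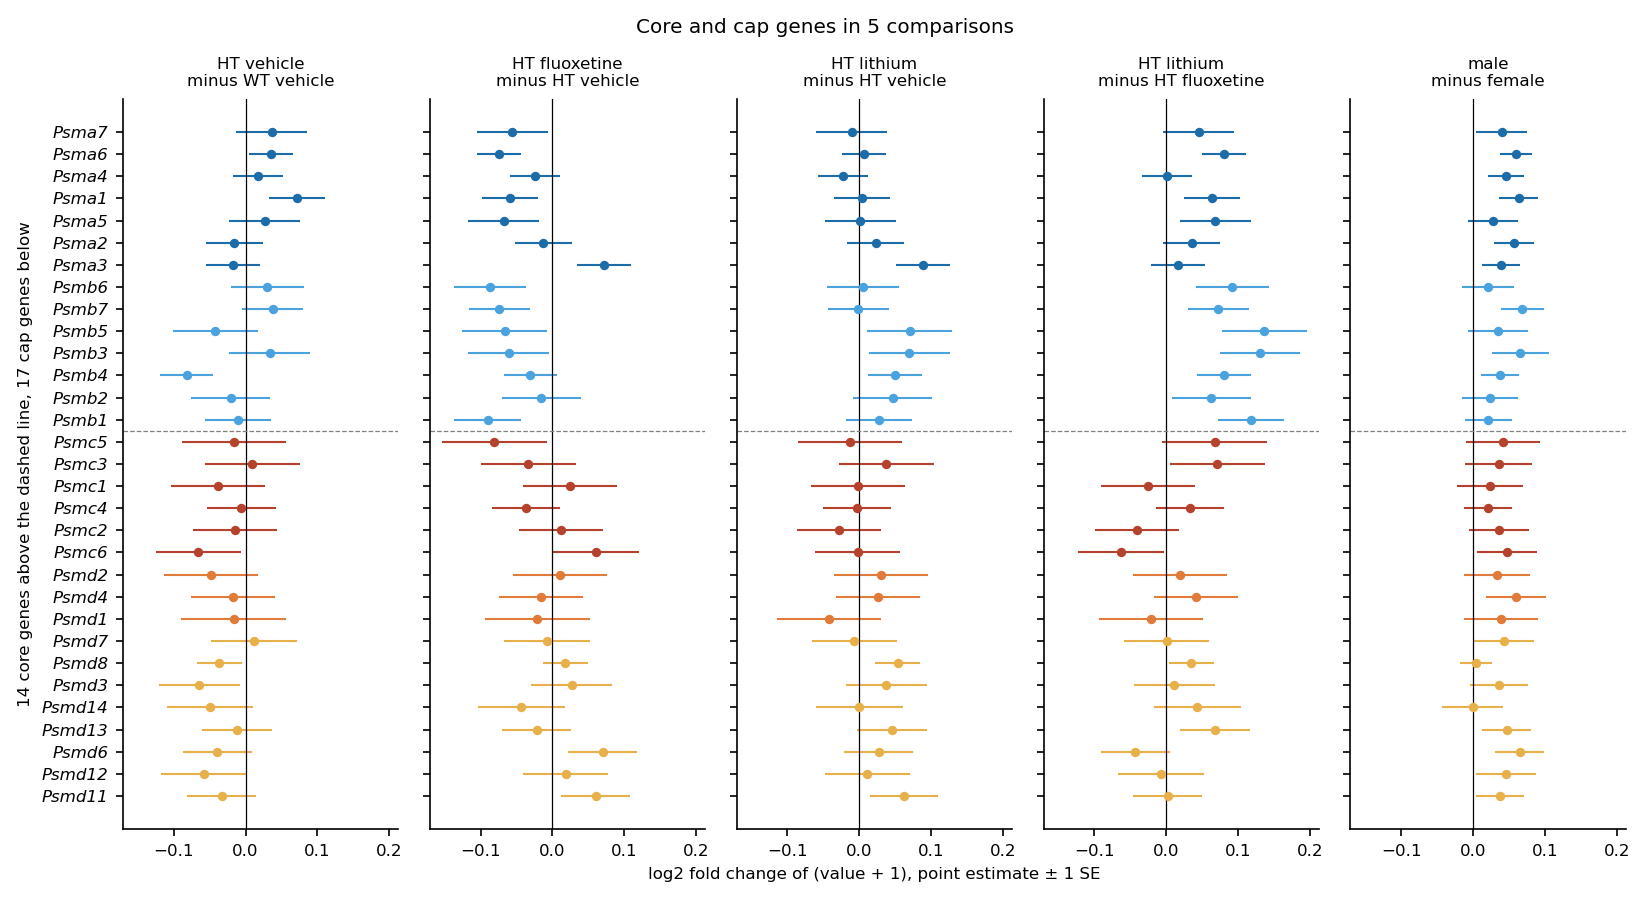
Log2 difference of each core gene (above the dashed line) and cap gene (below it) in 5 comparisons, as a point with a bar of ±1 SE from limma. In fluoxetine against vehicle 13 of 14 core points are left of 0 and in lithium against fluoxetine 14 of 14 are right of it, while no point passes the adjusted threshold.

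Fluoxetine libraries were compared with vehicle libraries within HT, to ask how the drug arm differs on the mutant background. Core genes were a little lower with fluoxetine, 13 of 14 with a median log2 difference of -0.06 against 50.5% of all genes, and the 17 cap genes were split, 9 higher and 8 lower (median 0.01). Without HT vehicle male 3 or female 2, or fluoxetine male 2, 4 of 17 cap genes were higher, and without fluoxetine female 2, 5 of 17. No member passed the adjusted p under 0.05 by limma (0 of 43, against 0.0119% of all genes), 2 had an unadjusted p under 0.05 against 5.71% of all genes, and edgeR and DESeq2 called 0 members. Their 95% intervals in core and cap lay within -0.23 to 0.18 (folds of 0.851 to 1.14), and 0 members had arms that do not overlap, against 0.47% of all genes.

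All 7 beta-ring genes were lower (median -0.07), as were 6 of 7 alpha-ring genes (median -0.06), with Psma3 the exception at 0.07. Oxidative phosphorylation genes were lower for 75 of 77 (median -0.10) and ribosomal protein genes for 68 of 77 (median -0.09). Over the 31 core and cap genes the difference followed transcript length, with a Spearman rho of 0.63 across genes, which are not independent replicates. The core count was 13 of 14 without the 6 bulb-high libraries (median -0.09), and without the 4 Drd2-high or Ttr-high libraries 11 of 14 with a median of -0.02. With a batch term, which equals a comparison within P40_L1 for this drug, it was 11 of 14 (median -0.07). Olfactory bulb markers were higher in fluoxetine for 7 of 7 (median 0.81) and striatal markers lower for 8 of 8 (median -0.54), whose part in the result was not tested.

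Psma6, an alpha subunit (chr12:55384222-55418454), had the smallest p. It ran from 1678 (median 1814) to 1899 in HT vehicle and from 1618 (median 1706) to 1774 with fluoxetine, so the arms overlapped although 6 of 6 fluoxetine libraries were under the vehicle mean (log2 difference -0.07, SE 0.03, unadjusted p = 0.0261, adjusted p = 0.810). The immune catalytic gene Psmb10 (chr8:105935735-105938444) followed: 546 (median 601) to 639 in vehicle and 468 (median 526) to 636 with fluoxetine, log2 difference -0.18, SE 0.08, adjusted p = 0.847, lower in 5 of 6. Psmb1, a structural beta subunit, ran from 2230 (median 2366) to 2545 and from 2127 (median 2203) to 2317 (log2 difference -0.09, SE 0.05, adjusted p = 0.913, lower in 6 of 6).

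The catalytic genes Psmb5 (1447 to 1762, median 1581), Psmb6 (1805 to 2066, median 1922) and Psmb7 (2265 to 2574, median 2457) had log2 differences of -0.07, -0.09 and -0.07 in fluoxetine, with unadjusted p of 0.275, 0.101 and 0.0976. All 3 overlapped their vehicle arm. Psmb8 ran from 49.7 (median 64.6) to 124.6, the highest library of any arm, and Psmb9 from 25.1 (median 29.7) to 47.4. Their log2 differences were -0.15 (SE 0.18) and -0.24 (SE 0.22), so that 3 of 3 immune subunits were lower with a median of -0.18, none past the threshold. The ratio of Psmb7 to Psmb10 per kb was 5.21 ± 0.36 (SD, n = 6) with fluoxetine and 4.84 ± 0.24 with vehicle, 4.68 ± 0.48 in WT and 4.76 ± 0.65 with lithium.

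Activator levels with fluoxetine were 610 to 740 for Psme1 (median 704), 290 to 378 for Psme2 (median 329), 2541 to 2964 for Psme3 (median 2804) and 1369 to 2113 for Psme4 (median 1880). Their log2 differences from vehicle were -0.03, 0.06, 0.02 and 0.07, and each arm overlapped the other.

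**Figure D5:**
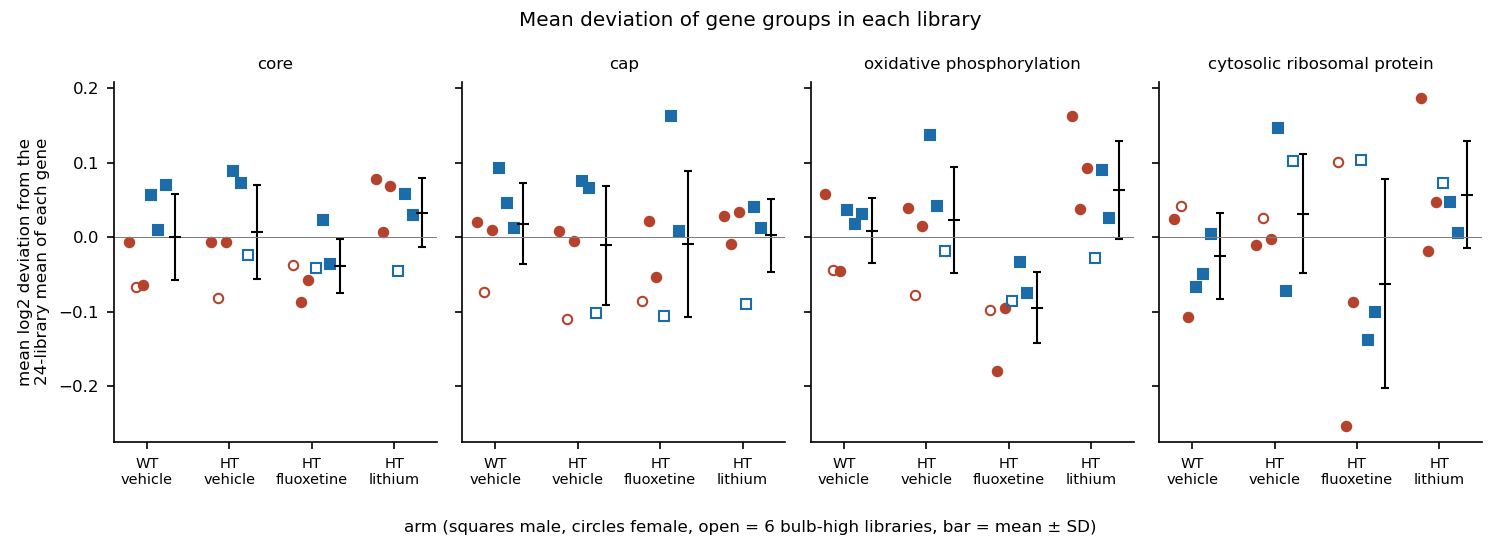
Score of each library (mean log2 deviation of the gene group from its mean over libraries) in the 4 arms, for core, cap, oxidative phosphorylation and ribosomal protein genes, with circles for females, squares for males, open symbols for bulb-high libraries and a bar for the mean ± SD of 6 libraries. Core scores in fluoxetine (-0.087 to 0.023) overlap those in vehicle (-0.082 to 0.089) and lithium (-0.045 to 0.078).

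Lithium was compared with vehicle within HT by the same question. In the core 11 of 14 genes were higher with a median of 0.01, and in the cap 10 of 17 (median 0.01), against 49.5% of all genes, but scaled by total reads 7 of 14 and 8 of 17 were higher (medians of 0.00 and -0.00). Without HT vehicle female 2, 7 of 14 core genes were higher, and without HT vehicle male 3 the cap count was 6 of 17. A batch term also gave 7 of 14 in the core, but it rests on the 1 fluoxetine library of P40_L2 and does not separate lithium from batch. Striatal markers were lower with lithium for 8 of 8 (median -0.49, summed level 4511 to 31811 normalised reads with vehicle and 4621 to 8791 with lithium), microglia markers lower for 10 of 10 (median -0.10), choroid plexus markers lower for 6 of 6 (median -0.25) and red blood cell markers higher for 5 of 5 (median 0.21), whose part in the result was not tested. No member was called by limma (0 of 43, against 0.0119% of all genes), by edgeR or by DESeq2, and 1 had an unadjusted p under 0.05 against 2.75%. The 95% intervals of core and cap lay within -0.19 to 0.19 (folds of 0.874 to 1.14), and 0 members had arms that do not overlap, against 0.166% of all genes.

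Psma3 (chr12:70974621-70996347) had the smallest p. It ran from 1651 (median 1773) to 1839 in vehicle and from 1748 (median 1867) to 1980 with lithium, with 5 of 6 libraries above the vehicle mean (log2 difference 0.09, SE 0.04, unadjusted p = 0.0282, adjusted p = 1.0). Psmd8 ran from 2339 (median 2372) to 2439 and from 2407 (median 2470) to 2531, above the vehicle mean in 6 of 6 (log2 difference 0.05, SE 0.03, adjusted p = 1.0). Psmb4 with lithium ran from 1638 (median 1689) to 1842, a log2 difference of 0.05 that was -0.02 with the batch term.

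The catalytic genes in the lithium arm ran from 1564 to 1859 for Psmb5 (median 1764), 1962 to 2236 for Psmb6 (median 2001) and 2454 to 2661 for Psmb7 (median 2585). Immune subunits ran from 70.1 to 92.9 for Psmb8 (median 76.2), 23.4 to 43.02 for Psmb9 (median 41.6) and 485 to 709 for Psmb10 (median 623). Activators ran from 624 to 763 for Psme1 (median 696), 269 to 367 for Psme2 (median 315), 2629 to 3001 for Psme3 (median 2698) and 1502 to 2147 for Psme4 (median 1668). Each of these ranges overlapped that of vehicle, and the log2 differences of the immune subunits were 0.00, -0.02 and 0.03.

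Between the drug arms, all 14 core genes were higher with lithium than with fluoxetine, with a median log2 difference of 0.07 against 49% of all genes higher, and 11 of 17 cap genes (median 0.01), where scaling by total reads gave 12 of 14 (median 0.05) and 8 of 17 (median -0.01). Without fluoxetine male 1 the cap count was 7 of 17. Of the 43 members 6 had an unadjusted p under 0.05 against 5.59% of all genes, 5 of them in the core, and 0 were called by limma against 0.0238% of all genes, by edgeR or by DESeq2. No member had arms that do not overlap, against 0.321% of all genes. The beta ring was higher in 7 of 7 genes (median 0.09), the immune subunits in 3 of 3 (median 0.21), the oxidative phosphorylation genes in 76 of 77 (median 0.15) and the ribosomal protein genes in 73 of 77 (median 0.12). Without the 6 bulb-high libraries the core count was 12 of 14 (median 0.08), and with the batch term, which rests on fluoxetine female 3 here too, 14 of 14 (median 0.05). Markers of prefrontal excitatory neurons were higher with lithium for 7 of 8 (median 0.12). Olfactory bulb markers were lower for 7 of 7 (median -0.86), microglia markers for 10 of 10 (median -0.10) and choroid plexus markers for 5 of 6 (median -0.30). The part of these lists in the result was not tested. The lithium arm also lies in another batch than 5 of the 6 fluoxetine libraries. The drug libraries are the same as in the comparisons with vehicle.

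Psma6 had the smallest p here too. It ran from 1618 (median 1706) to 1774 with fluoxetine and from 1714 (median 1785) to 1893 with lithium (log2 difference 0.08, SE 0.03, unadjusted p = 0.0169, adjusted p = 0.805, higher in 6 of 6). Psmb10 had a log2 difference of 0.21 (SE 0.08, unadjusted p = 0.0181, adjusted p = 0.806, higher in 5 of 6). Psmb1 ran from 2127 (median 2203) to 2317 and from 2237 (median 2399) to 2645 (log2 difference 0.12, SE 0.05, unadjusted p = 0.0196, adjusted p = 0.806, higher in 6 of 6). The chymotrypsin-like Psmb5 was among the 6 as well, with a log2 difference of 0.14 (SE 0.06, unadjusted p = 0.0326, adjusted p = 0.877).

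Males were compared with females over all arms, 12 libraries of each. All 14 core genes and 16 of 17 cap genes were higher in males, by small medians of 0.04 each, against 48.5% of all genes. None was called by limma (0 of 43, against 0.0832% of all genes), by edgeR or by DESeq2, 3 had an unadjusted p under 0.05 against 2.59%, and 0 had sexes that do not overlap, against 0.0535%. The core count was 14 of 14 with each library left out in turn and without the 6 bulb-high libraries. Without the 4 Drd2-high or Ttr-high libraries 13 of 14 were higher. Psma6 had the smallest p (log2 difference 0.06, SE 0.02, unadjusted p = 0.0129, adjusted p = 1.0), followed by Psma1 (0.06, SE 0.03) and Psmb7 (0.07, SE 0.03), each with an adjusted p of 1.0. Red blood cell markers were higher in males for 5 of 5 (median 0.67), endothelial markers for 6 of 6 (median 0.04) and microglia markers for 9 of 10 (median 0.03). Olfactory bulb markers were lower in males for 7 of 7 (median -0.48) and choroid plexus markers for 6 of 6 (median -0.52). The part of these lists in the result was not tested.

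The difference between sexes in each effect was tested as an interaction. For lithium, the core was higher in females (14 of 14, median 0.08, where 50.1% of all genes were higher and 49.9% lower) and lower in males (11 of 14, median -0.04, against 51%), so that the interaction, male effect minus female effect, was below 0 in 13 of 14 core genes (median -0.12) and 16 of 17 cap genes (median -0.06), where 50.4% of all genes were below 0 and 49.6% above. No member was called by limma (0 of 43, against 0% of all genes), edgeR or DESeq2, and 2 had an unadjusted p under 0.05 against 1.63%. Scaled by total reads, the core median was -0.07 with 13 of 14 below 0, and the cap median -0.02 with 12 of 17. Striatal markers followed the same direction for 8 of 8 (median -0.87) and prefrontal excitatory markers for 8 of 8 (median -0.32). Olfactory bulb markers were above 0 for 6 of 7 (median 0.79) and choroid plexus markers for 5 of 6 (median 0.58). The part of these lists in the result was not tested. Of the other groups, 73 of 77 oxidative phosphorylation genes (median -0.12) and 69 of 77 ribosomal protein genes (median -0.09) were also below 0.

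Psma6 had the smallest p of any member in any comparison. Its female libraries held 1694, 1678 and 1793 normalised reads with vehicle and 1875, 1812 and 1893 with lithium, and its male libraries 1834, 1899 and 1854 with vehicle and 1714, 1757 and 1744 with lithium. Within each sex the 3 libraries of one arm did not overlap the 3 of the other, in opposite directions, as for 0.214% of all genes (log2 differences of 0.11 in females and -0.10 in males, interaction -0.21, SE 0.06, unadjusted p = 0.00289, adjusted p = 0.998). Psma6 was named for its p on these same values, so the separation adds no further evidence. Psmb4 had an interaction of -0.17 (SE 0.07, unadjusted p = 0.0371) and Psma1 of -0.16 (SE 0.08, unadjusted p = 0.0575), both with an adjusted p of 0.998.

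For genotype, 8 of 14 core genes and 11 of 17 cap genes had an interaction below 0 (medians -0.02 each), against 49.1% of all genes, but scaled by total reads 9 of 14 and 12 of 17 were above 0 (medians of 0.02 and 0.01). Olfactory bulb markers had a genotype interaction above 0 for 7 of 7 (median 2.16) and striatal markers for 8 of 8 (median 0.55). Prefrontal excitatory markers were below 0 for 8 of 8 (median -0.29) and microglia markers for 9 of 10 (median -0.18). The part of these lists was not tested. Of the members 1 had an unadjusted p under 0.05 against 2.17%. It was Psma3, at 1694, 1741 and 1638 in WT females and 1839, 1762 and 1739 in HT females, and at 1831, 1898 and 1907 in WT males and 1651, 1792 and 1784 in HT males. The female libraries overlapped, and the male libraries did not, as for 5.59% of all genes (interaction -0.18, SE 0.07, unadjusted p = 0.0244, adjusted p = 0.996). Psma3 too was named for its p on these same values. Psma7 (0.18, SE 0.10) and the meiotic gene Psmc3ip (0.81, SE 0.55) came next. For fluoxetine, 10 of 14 core genes were below 0 (median -0.02, against 52.3% of all genes) and 12 of 17 cap genes above 0 (median 0.01, against 47.7%), with 0 members under an unadjusted p of 0.05 against 1.07%. Its smallest p-values were those of Psmb4 (-0.13, SE 0.07), Psma1 (-0.12, SE 0.08) and Psmb7 (-0.10, SE 0.08). Limma, edgeR and DESeq2 called 0 members in both, where limma called 0% of all genes. In the fluoxetine interaction, olfactory bulb markers were below 0 for 7 of 7 (median -0.66) and striatal markers for 7 of 8 (median -0.26). Microglia markers were above 0 for 10 of 10 (median 0.15), and the part of these lists was not tested.

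The surrounding ubiquitin and proteasome pathway was read from 5 lists of 49 tested genes, covering proteasome-associated proteins, core assembly chaperones, regulators of proteasome gene expression, ubiquitin supply and antigen processing. Limma, edgeR and DESeq2 called 0 of the 49 in each of the 8 comparisons, and from 0 (fluoxetine interaction, against 1.07% of all genes) to 4 (fluoxetine, against 5.71%) had an unadjusted p under 0.05 by limma. In genotype 23 were higher and 26 lower, with fluoxetine 28 and 21, with lithium 36 and 13, and between the drugs 26 and 23, where 48.7%, 49.5%, 49.5% and 49% of all genes were higher. Uba6, an enzyme that activates ubiquitin, had the smallest or next smallest p in 4 comparisons: its means were 588 ± 39 in WT, 521 ± 34 in HT vehicle, 607 ± 53 with fluoxetine and 571 ± 44 with lithium (SD, n = 6). The log2 difference was -0.18 in genotype (SE 0.06, adjusted p = 1.0) and 0.22 with fluoxetine (SE 0.06, unadjusted p = 0.0010, adjusted p = 0.546). Both share the HT vehicle libraries. Midn, midnolin, which carries nuclear proteins to the proteasome without ubiquitin, had means of 1833 ± 361, 1643 ± 181, 2027 ± 174 and 1981 ± 394 in the same order, and a fluoxetine log2 difference of 0.30 (SE 0.08, adjusted p = 0.546).

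Other pathway genes with the smallest p were, for genotype, Ddi2, the protease that activates Nfe2l1 (log2 difference -0.13), and between the drugs the ubiquitin fusion gene Rps27a (0.16) and the assembly chaperone Psmg1 (0.17). With lithium they were Midn (0.25) and Uba6 (0.13), and between the sexes Uba6 (-0.11) and the chaperone Calr (-0.08). The interactions named Midn (0.47) and the cap deubiquitinase Uchl5 (-0.38) for genotype, the assembly chaperone Psmg2 (0.25) and the interferon regulator Irf1 (0.39) for fluoxetine, and Midn (0.46) and Psmg2 (0.22) for lithium. Over the 18 libraries the score of the core assembly chaperones had an r of 0.74 with the beta-ring score (rho 0.68, then 0.67) and of -0.02 with the cap score (rho 0.09, then -0.04). Psmb8 had an r of 0.50 with the antigen processing score (rho 0.41, then 0.46) and Psmb10 of 0.23 (rho 0.20, then 0.24).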

How the data were processed

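Libraries were made with a kit for stranded messenger RNA, per the labels' protocols, and quantified with Salmon 0.11.2, R 3.6.0 and DESeq2 1.19.11 on GRCm38, per the submitters' processing notes; the strand setting of the counting is not given in the sources used here. The authors deposited a normalised signal per gene, that is read counts divided by a size factor per library. Dividing each value by the size of 1 read gave whole reads for 100.0% of values within 0.01. Gene names came from GENCODE M21 (18227 of 18240 matched), and 10 of the 43 members overlap another gene of the table (among them Psmb9 with Tap1, Psmb7 with Nek6 and Psma3 with an antisense transcript). Whether reads of partners on opposite strands were kept apart cannot be judged without the strand setting. Psma2, Psmd1 and Psmd13 also overlap a gene on the same strand, where that setting would not separate the reads.

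Genes with a mean of at least 10 (16825) were tested as log2(value + 1) with limma 3.58.1 (R 4.3.3) on the 8 group means of 3 libraries, with mean-variance trend and Benjamini-Hochberg adjustment over all genes tested. Fold changes are on this log2 scale and understate those of low genes. On the recovered reads edgeR 4.0.16 called 0, 2, 0, 4 and 13 genes and DESeq2 1.42.0 called 0, 16, 3, 30 and 20 for genotype, fluoxetine, lithium, lithium against fluoxetine and sex; limma called 0, 2, 2, 4 and 14. The limma fit alone was tried on simulated counts with known folds, for HT vehicle against WT vehicle. The edgeR and DESeq2 fits, the other comparisons, and the batch and block terms were not simulated. Correlations were planned over 24 libraries and are mostly given over 18, with the 6 libraries of highest olfactory bulb score set aside. Their bulb scores ran from 2.68 to 3.29, and the next library was at 1.75. The 6 were a fixed number and were not found by clustering. Named in full are the catalytic and immune beta subunits, the activators, in each comparison the 3 members with the smallest p, the highest and lowest gene of each class per kilobase, the most and least variable genes, and for the pathway lists the 2 genes of smallest p per comparison. The members, lists and alternatives were chosen with earlier results of these data known.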

Additional observations from a re-analysis of the deposited data

Results flagged for a closer look

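In 64 tests of whether the highest or lowest library of an arm of 6 stands apart (Dixon's gap over range, above 0.625), 4 libraries were found, where chance gives about 1 in 20 groups. Psmb9 was at 23.4 normalised reads in HT lithium female 3, with the other 5 lithium libraries at 41.3 to 43.02. Psme4 was at 2147 in HT lithium male 1, a bulb-high library, with the others at 1502 to 1722. Psmb11 was at 24.8 in WT vehicle female 2, also bulb-high, with the others at 4.21 to 9.32. Psmd8 was at 2299 in WT vehicle male 2, with the others at 2448 to 2496.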

How the results depend on the processing

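Over 202 alternatives to the 8 comparisons (pseudocount, minimum level, scaling, tool, batch term, replicate block, libraries left out), 0 had a member past the threshold, and the smallest adjusted p of a member was 0.184, between the drugs. Psmb9 in genotype was -0.0159 on the log2 scale without the 6 bulb-high libraries (0.28 with all), and Psmb4 with lithium was -0.0154 with a batch term, which rests on 1 fluoxetine library (0.05 without); the cause was not tested. The core median of the sex difference in the lithium effect was -0.0742 when scaled by total reads and -0.12 as deposited. With 1 library left out, the core median ran from -0.08 to -0.04 with fluoxetine, from 0.06 to 0.09 between the drugs and from -0.16 to -0.08 for the sex difference with lithium. The cap medians were close to 0 and changed sign in genotype without HT vehicle male 3 (0.006), and in both drug comparisons with vehicle without HT vehicle female 2 or male 3; it also did so with fluoxetine without fluoxetine female 2 or male 2, with lithium without lithium female 3, and between the drugs without fluoxetine female 1 or male 1 or lithium male 2. The deviations of same-numbered libraries of different arms had a median r of -0.058 over 36 pairs (-0.70 to 0.72). Over 72 other pairs it was 0.019 (-0.68 to 0.69). Values this widely spread show no pairing by number and cannot exclude one. With the replicate number as a block 0 members were called, and 0, 0, 0, 0 and 13 genes in all for genotype, fluoxetine, lithium, lithium against fluoxetine and sex. For the low genes Psmb8, Psmb9 and Psmb11, counting noise at this depth limits what could be seen.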

Other observations

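Across the 31 core and cap genes, the Spearman rho of transcript length with the log2 difference was 0.63 for fluoxetine and -0.60 for lithium against fluoxetine. It was -0.45 for genotype, -0.01 for lithium against vehicle and -0.09 for sex. Core transcripts were shorter than cap transcripts (medians 1162.5 and 1636 nt). The fluoxetine comparison shares its fluoxetine libraries with lithium against fluoxetine and its HT vehicle libraries with genotype, each with the opposite sign. These values of rho are therefore not independent of each other. These are values across genes, which are not independent replicates.

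Among regulators, Nfe2l1, the transcription factor known for restoring proteasome gene expression, averaged 10248 normalised reads, and Vcp, a segregase that hands ubiquitinated proteins to the proteasome, 8184. Pomp, an assembly chaperone of the core, averaged 1606, and Adrm1, a ubiquitin receptor of the cap, 1647. The 5 core assembly chaperones were higher with lithium than with fluoxetine (5 of 5, median 0.15, against 49% of all genes higher), none past the adjusted threshold by limma, edgeR or DESeq2.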
